A study of Mus musculus with 107 samples.

Results

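Wildtype mouse eggs of 1 sequencing plate fell into 2 classes by how their transcripts were distributed. In 9 of the 24 eggs, called concentrated here, the egg's own 50 most abundant genes took over 35% of its counts. In the other 15, called spread, they took 35% or less. The members of each class were chosen by these shares of the same counts, so every difference in transcript level between them is given as a description with no test. The 24 eggs were part of 107 single eggs of the series. All came from wildtype C57BL/6J females of 2 to 3 months that had received 5 IU of pregnant mare serum gonadotropin 48 h before oocyte collection. Immature oocytes were arrested with 2.5 µM milrinone, released into culture, and taken as eggs 38 to 40 h after germinal vesicle breakdown. Values from other eggs of the series with at least 10000 counts are given beside them: 5 wildtype eggs of batch 1, 58 eggs of mos -/- females (9 of batch 1 and 49 of batch 2), and 17 wildtype eggs activated by 10 mM strontium chloride for 2 h. The mutant eggs were labelled M1, M2 or M3 and are pooled here. Strontium had a labelled start of 15 to 16 h, and the labels gave all groups the same collection time of 38 to 40 h. The plate 3 eggs belonged to batch 2. Eggs were not tied to animals by the labels, so eggs of 1 class may share a mother, and the spread between eggs may be technical.

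A fully grown egg makes almost no new RNA. It lives on transcripts stored during growth, which are masked with short poly(A) tails until CPEB1 and its partners direct their lengthening. Transcripts with U-rich CPEB binding elements near the end of the 3′ UTR are tailed and translated during maturation, while many others are deadenylated and removed by BTG4 and the CCR4-NOT complex. Smart-seq2 copies polyadenylated transcripts of 1 cell by priming on the tail. Levels are CPM, an egg's counts scaled to a common total, so they are relative: a transcript that takes a larger share lowers the share of all others, and more RNA of 1 gene and less of the rest cannot be told apart.

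The transcripts that filled the concentrated eggs were led by Zbed3, which binds Axin in Wnt signalling and is part of the subcortical maternal complex of the egg, by Spin1, a spindle-associated chromatin reader of the egg, and by Tcl1, a coactivator of the AKT kinase. The end of the annotated 3′ UTR was searched on the sense strand for TTTTAT and TTTTAAT, the DNA spelling of the CPEB binding element, in the last 100 bases. TTTTAAT can share its last bases with the polyadenylation signal AATAAA. The 30 bases around a match are shown for 7 transcripts higher in concentrated eggs, with motif and signal (AATAAA or ATTAAA) in capitals, as examples of the ends of the transcripts that filled these eggs.
Zbed3: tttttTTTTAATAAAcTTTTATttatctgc
Spin1: tctgtaagtaatTTTTATaattatgatgta
Tcl1: gaatgtgtgggaTTTTATgtggttctattt
Khdc1b: tctttggaacATTAAAgtttgTTTTATtta
Btg4: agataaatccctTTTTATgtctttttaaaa
Omt2a: ttaacggTTTTATAATAAATAAAagtttca
Oog3: atAATAAAtgtgttaactttgTTTTATttt
On GRCm38 these windows are chr13:95337812-95337841 (plus strand) for Zbed3 and chr13:51152473-51152502 (plus) for Spin1. They are chr12:105216797-105216826 (minus) for Tcl1, chr1:21386344-21386373 (plus) for Khdc1b and chr9:51119797-51119826 (plus) for Btg4. The last pair is chr9:78312011-78312040 (minus) for Omt2a and chr4:144157558-144157587 (minus) for Oog3. All lie in the 3′ UTR of a protein-coding gene. Neither motif was found in the last 100 bases of Ccdc6, Rbbp7, Slbp or Dppa3, which were also higher in concentrated eggs. In all, 17 of the 49 annotated higher genes and 286 of the 1373 annotated lower genes held one. The lower ones included Bub1b, Pdcd6ip and Psma1, and Lrrc14 and Peli1 are shown for comparison.
Lrrc14: ttaacgtcccTTTTAATAAAtccaaactct
Peli1: ttgtagcttaatTTTTATttgcaattaatt
Their windows are chr15:76717664-76717693 (plus) and chr11:21150263-21150292 (plus). None was found in Zar1, Cpeb1 or Med26, which were also lower.

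Shares in the top 50 genes ran from 35.8% to 45.9% in concentrated eggs, with a median of 41.5%, and from 19.4% to 24.2% in spread eggs, with a median of 22.05%. No egg lay between egg 37 (24.2%, spread) and egg 38 (35.8%, concentrated). The 80 other eggs ran from 16.4% to 30.1%, with a median of 20.3%, so none of these 80 passed 35%. The spread eggs resembled the other groups in this measure: the 5 wildtype eggs of batch 1 ran from 19.8% to 24.4% and the activated eggs from 19.1% to 22.4%. In a concentrated egg, 78 to 184 genes (median 116) held 50% of the counts. In a spread egg it took 355 to 454 genes (median 407).

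**Figure D1:**
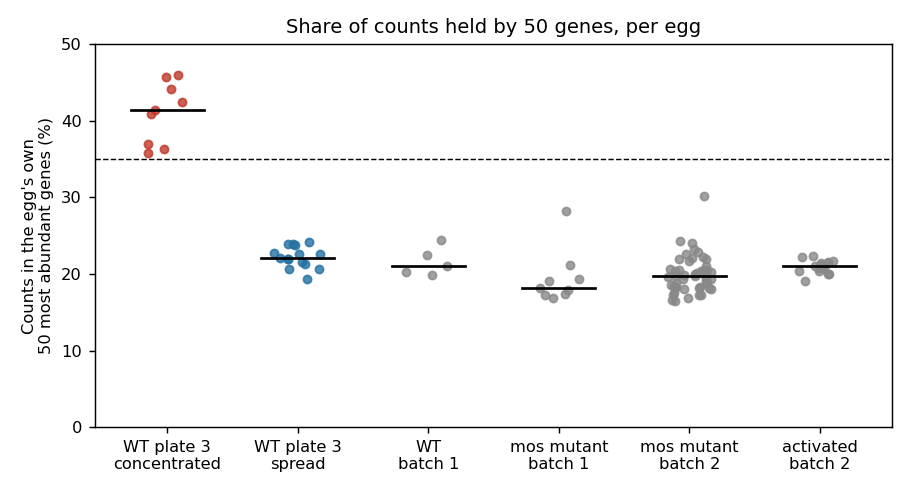
Share of counts in each egg's own 50 most abundant genes (%), with 1 point per egg, a bar at the group median and a dashed line at 35%. The 9 concentrated eggs sit between 35.8% and 45.9%, and the highest of the other eggs drawn is a mutant egg of batch 2 at 30.1%.

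The difference between the classes was already present at the first few genes. Zbed3 was the most abundant gene in each of the 24 eggs. Spin1 was second in all 9 concentrated eggs and in 13 of 15 spread eggs, and Tcl1 was the third in 8 of 9 and in 4 of 15. Together these 3 genes took 18.9% to 27.03% of counts in concentrated eggs and 3.76% to 11.3% in spread eggs. The classes were still apart at 1000 genes, which held 77.1% to 82.6% and 66.6% to 72.4% of counts. The same 9 eggs stood apart when 20 or 100 genes were summed, and also when Zbed3 was left out of each egg. Without Zbed3, Spin1 and Tcl1, a choice made after seeing the data, the widest gap set off 5 eggs, all among the 9, at 25.7% and above, while the next egg lay at 22.6%.

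**Figure D2:**
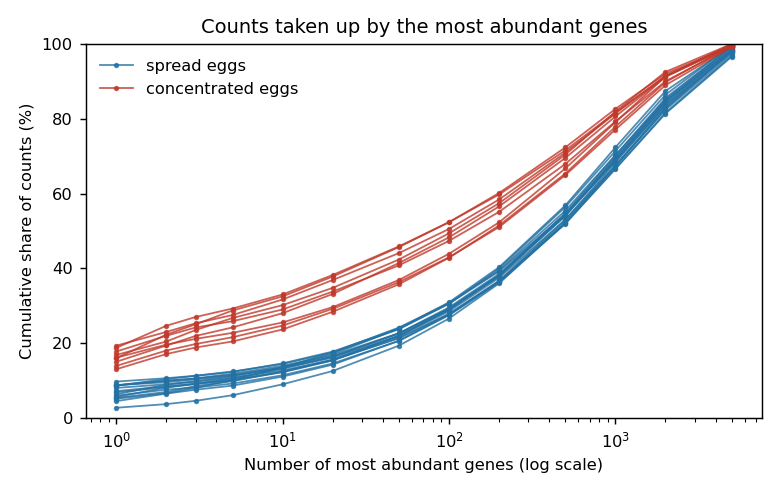
Cumulative share of counts (%) against the number of most abundant genes (log scale), with 1 line per wildtype egg of plate 3. The lines of the classes are apart from the first gene (13.1% to 19.4% against 2.77% to 9.77%) to 1000 genes.

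None of 4 measures that had no part in choosing the classes passed a test between them. Total counts ran from 71917 to 259055 (median 154472) in concentrated and from 66826 to 630687 (median 243113) in spread eggs. Mean log10 totals were 5.18 ± 0.21 (SD, n = 9) and 5.34 ± 0.29 (SD, n = 15), and the two-sided exact permutation test gave p = 0.171. Mean well columns were 7.11 ± 3.55 and 5.80 ± 3.49 (exact permutation p = 0.406), and mean library index numbers differed by 6.44 (SD 22.6 and 20.6, exact permutation p = 0.482). Row A of the plate held 5 of the 9 concentrated and 6 of the 15 spread eggs (two-sided Fisher's exact p = 0.675). Adjusted over these 4 tests by the Benjamini-Hochberg method, p-values were 0.643 for the first 3 and 0.675 for the fourth. The library index number rose with the well column within each row, so the tests of column and index are not independent of each other. With 9 against 15 eggs, a moderate difference in any of the measures could have been missed. Thinned to 66826 counts each, concentrated eggs had counts for 4348 to 5006 genes (median 4668) and spread eggs for 4781 to 6433 (median 5662).

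As a check of cell type, the egg genes Gdf9 and H1f8 had counts in all 24 eggs. Zp3 and Ooep, 2 other egg markers, had counts in only 2 and 5 of the 9 concentrated eggs and in 14 of the 15 spread eggs each. Granulosa and cumulus markers summed to 0.00777% to 0.0324% of counts in concentrated and 0.0116% to 0.0558% in spread eggs, and 12 of the 21 had no count in any of the 24. Blood markers summed to at most 0.00372% and 0.0131%. The part of these markers in the class differences was not tested. Spread eggs 45 and 33 stood apart from all other eggs: the median rank correlation of their gene levels with the other eggs was 0.36 and 0.49, against 0.59 to 0.68 for the other 22. For several 2-fold calls and list medians below that turned on these 2 eggs, the value without them is given beside it.

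Over all genes, a ratio was taken of the mean CPM in concentrated over spread eggs, for the 4718 genes with at least 20 CPM in the mean of the 2 class means. By a ratio of at least 2-fold, 57 genes were higher (1.21%) and 1406 lower (29.8%) in concentrated eggs. The median gene had a log2 ratio of −0.57. In 10 genes (0.212%) every concentrated egg lay above every spread egg, and in 11 (0.233%) every one lay below. Since the classes were cut from these same counts, nothing is read from these numbers beyond the description. The imbalance between few higher and many lower genes follows in part from the scaling. With TMM scaling the median moved up by 0.35 on the log2 scale, with 174 genes higher and 902 lower, so that 16.2% of called genes were higher in place of 3.90%. Scaled by counts outside each egg's top 50, 252 genes were higher and 1025 lower (19.7% higher). Of the 1406 lower genes, 886 were still at least 2-fold lower with TMM scaling and 823 with the other. The genes without overlap changed too: TMM scaling gave 21 above and 3 below, and scaling outside the top 50 gave 20 and 4. With each egg thinned to equal depth there were 9 above and 3 below.

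The gain was held by few genes and the loss by many. The genes with a higher mean share gained 25.3 percentage points of the counts in all, and Zbed3 alone accounted for 37.4% of that gain. The first 3 genes made up 55.5% and the first 20 made up 76.4%. The loss of equal size was spread over 9896 genes, and its 15 largest contributors made up only 5.34%. It took 651 genes to reach 50% of the loss. Ratios were higher for more abundant genes: the median log2 ratio was −0.82 for the 1797 genes of 20 to 50 CPM and −0.23 for the 504 genes of 300 to 1000 CPM. It was 0.94 for the 19 genes of at least 3000 CPM, of which 8 were at least 2-fold higher and none lower. The rule chose eggs by the share of their abundant genes, and the bands used the means of both classes. This order, and a gain held by few genes, thus follow in part from the rule and are only a description.

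**Figure D3:**
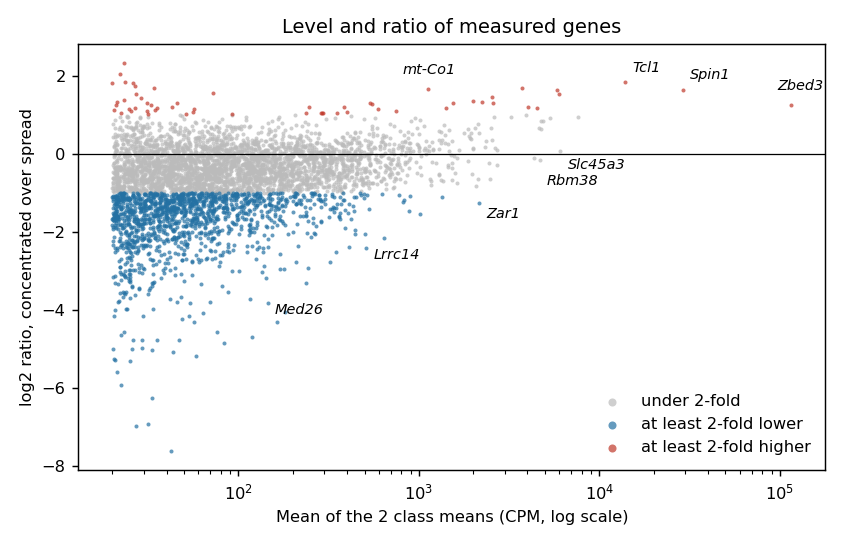
Log2 ratio of mean CPM, concentrated over spread eggs, against the mean of the 2 class means (CPM, log scale), with 1 point per measured gene. Red points are the 57 genes at least 2-fold higher, blue points the 1406 at least 2-fold lower, and of the 19 genes of at least 3000 CPM, 8 are red and none blue.

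Zbed3 took 13.1%, 16.2% and 19.4% of counts (lowest, median and highest egg) in the concentrated class. In the spread class it took 2.77%, 6.91% and 9.77%. No concentrated egg overlapped a spread egg. Mean levels of Zbed3 were 163395 and 68597 CPM, a log2 ratio of 1.25. Among the 80 other eggs its share ran from 1.28% to 15.2%, and 1 mutant egg of each batch exceeded the lowest concentrated egg.

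Spin1 took 3.48%, 4.11% and 6.32% of counts in concentrated eggs and 0.474%, 1.35% and 2.54% in spread eggs, a log2 ratio of 1.64. Tcl1 took 1.54%, 2.30% and 2.76% against 0.181%, 0.554% and 1.45%, a log2 ratio of 1.83. For both, the classes did not overlap. Among the 80 other eggs Spin1 reached at most 2.55% and Tcl1 at most 1.40%, so each concentrated egg lay above each of these 80 in both transcripts. Genes of the Tcl1b family, neighbours of Tcl1 with related sequences, had log2 ratios between 0.04 (Tcl1b3) and 0.72 (Tcl1b1). Reads of near-identical copies may have been divided between them by the counting.

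The other genes in which every concentrated egg lay above every spread egg were Btg4, Slbp, Rbbp7, Khdc1b, Ube2q2l, Omt2a and Rfpl4. With Zbed3, Spin1 and Tcl1 they make up the 10, and all 10 stayed without overlap under both other scalings. At equal depth Omt2a overlapped. Btg4, which recruits the CCR4-NOT deadenylase to maternal transcripts, had 3893, 5598 and 7068 CPM in concentrated eggs. In spread eggs Btg4 had 361, 1728 and 3160 CPM (log2 ratio 1.67). Slbp, which binds the stem-loop at the end of histone mRNAs, had 2253, 3255 and 3861 CPM against 624, 1227 and 1780 (log2 ratio 1.33). The concentrated eggs were thus higher in both a removal factor for stored RNA and a factor for histone mRNA. Rbbp7, a histone-binding subunit of chromatin complexes, had 4144, 5889 and 6719 CPM against 1433, 2351 and 3632 (log2 ratio 1.20). Khdc1b, an egg KH-domain gene, had 4769, 8981 and 12962 CPM against 1147, 3030 and 4489 (log2 ratio 1.53). Ube2q2l, a relative of ubiquitin-conjugating enzymes, had 6521, 9024 and 12527 CPM against 1708, 2941 and 4415 (log2 ratio 1.64). Omt2a and Rfpl4, both egg genes, had log2 ratios of 1.30 and 1.16 without overlap. Khdc1b, Ube2q2l, Omt2a and Rfpl4 have close copies in the mouse genome, so their levels are uncertain.

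**Figure D4:**
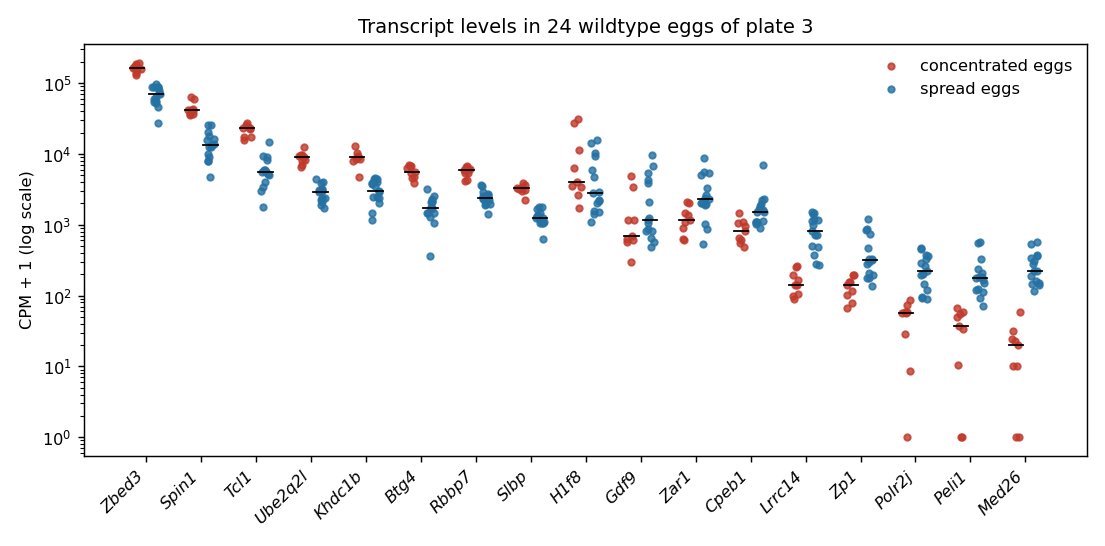
Levels of 17 genes in each of the 24 wildtype eggs of plate 3 (CPM + 1, log scale), with 1 point per egg and a bar at the class median. From Zbed3 to Slbp the classes do not overlap, from H1f8 to Cpeb1 and in Zp1 they do, and eggs with no count sit at 1.

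Most of the 80 other eggs lay below the concentrated range in Btg4 and Slbp. Of them, 2 mutant eggs of batch 2 exceeded the lowest concentrated egg in Btg4. In Slbp 1 mutant egg of each batch did. Khdc1b and Rbbp7 overlapped more, with 12 of the 49 mutant eggs of batch 2 above the lowest concentrated egg in each, and with 9 and 3 of the 17 activated eggs. Plate, batch and treatment cannot be told apart in these comparisons.

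Some abundant transcripts were higher in concentrated eggs by mean but overlapped between the classes. Dppa3, which protects the maternal genome from demethylation, had 1683, 3879 and 5124 CPM against 691, 1203 and 2513 (log2 ratio 1.45). Oog3, an oogenesin of the Oog cluster, had a log2 ratio of 1.31, and Ccdc6, a coiled-coil protein, one of 1.17. Bcl2l10, an anti-apoptotic BCL2 relative abundant in eggs, had 4269, 6383 and 7395 CPM against 1224, 3567 and 5145 (log2 ratio 0.83). These were less than fully separated, yet the class medians kept the same order. Not every abundant gene was higher. Slc45a3, a sugar transporter relative in the top 50 of all 24 eggs, had 4904, 6489 and 7495 CPM against 3719, 5602 and 7631 (log2 ratio 0.08). Rbm38, an RNA-binding protein also in the top 50 of all 24, had a log2 ratio of −0.16 and Atxn2l, a stress granule protein, one of −0.12. Both turned positive under TMM scaling (0.20 and 0.26).

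The 2 classes drew on largely the same abundant genes. Of the 50 most abundant genes of each egg, 27 were shared by all 9 concentrated eggs, and 7 were shared by all 15 spread eggs. Those 7 were Zbed3, Spin1, Tcl1, Ube2q2l, Slc45a3, Rbm38 and Usp19, and each was among the 27. Genes in the top 50 of at least 1 egg numbered 81 in the concentrated and 131 in the spread class, of which 72 were common (88.9% of the first set and 54.96% of the second). With more eggs, a set shared by all can only shrink and a set from any egg can only grow. The sizes of these sets are therefore not comparable between 9 and 15 eggs. No gene was in the top 50 of every concentrated egg and of no spread egg. Slbp came nearest, in all 9 concentrated and 2 of 15 spread eggs. On the other side Ep400, a subunit of a chromatin remodelling complex, was in the top 50 of 8 spread eggs and of no concentrated egg. Epn2 and Klhdc2 were in that of 7 spread eggs and no concentrated egg, and Cpeb1, Fpgs, Scap and Uhrf1 in that of 6.

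H1f8, the egg's linker histone, varied more within the classes than between them. It had 1709, 4044 and 30724 CPM in concentrated and 1106, 2812 and 15747 CPM in spread eggs. Its log2 ratio was 0.94, and 1.17 without eggs 33 and 45. The highest were eggs 34 and 40 of the concentrated class and eggs 29 and 33 of the spread class. H1f8 went with Gdf9, an oocyte-secreted growth factor, in both classes: over eggs, Pearson's r of their log2 levels was 0.88 in the 9 concentrated and 0.87 in the 15 spread eggs, given as a description. Gdf9 had 298, 701 and 4941 CPM against 476, 1157 and 9722. Zar1, which binds and stores maternal mRNA, followed H1f8 with r of 0.86 and 0.66. Not every pair of stored transcripts went together: Gdf9 and Nlrp14 had r of 0.31 and 0.45. H1f8 and Zbed3 had an r of 0.19 in concentrated and −0.65 in spread eggs. All of these levels share the egg's total as their denominator.

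Of the transcripts lost by the largest amount, Zar1 led, with 602, 1180 and 2061 CPM in concentrated and 525, 2336 and 8824 CPM in spread eggs (log2 ratio −1.27). The classes overlapped, and the highest value was that of egg 45. Without eggs 33 and 45 the log2 ratio was −0.93, and with TMM scaling it was −0.99. Cpeb1, the factor that binds the U-rich element and directs tailing, had 480, 820 and 1444 CPM against 898, 1505 and 6866 (log2 ratio −1.12). The highest value was again egg 45. The log2 ratio of Cpeb1 was −0.83 without eggs 33 and 45 and −0.86 with TMM scaling, both short of 2-fold. Gyg1, which primes glycogen synthesis, had 209, 455 and 1256 CPM against 561, 1155 and 2972 (log2 ratio −1.56). Pdcd6ip, an ESCRT-associated protein, had 136, 240 and 422 CPM against 71.7, 928 and 2313 (log2 ratio −2.16). Nlrp14, an egg NLRP gene, had a log2 ratio of −1.46 and Mtmr14, a phosphoinositide phosphatase, one of −1.25. Mtmr14 had −0.75 without eggs 33 and 45 and −0.84 scaled outside the top 50, also short of 2-fold. Gdf9 (−0.83) and Foxo3 (−0.76), a transcription factor of oocyte dormancy, stayed under 2-fold, near the median of all measured genes.

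Genes in which every concentrated egg lay below every spread egg were of moderate or low level. Of these 11 genes only 3 stayed without overlap with TMM scaling, 4 when scaled outside the top 50 and 3 at equal depth. Med26, a subunit of the Mediator complex, had 0, 19.3 and 58.3 CPM in concentrated eggs, with counts in 7 of 9. In spread eggs Med26 had 114.7, 224 and 561 CPM (log2 ratio −3.83). Lrrc14, a leucine-rich repeat protein, had 88.3, 140 and 263 CPM against 268, 808 and 1495 (log2 ratio −2.43). The gap between the highest concentrated and the lowest spread egg was thus narrow for Lrrc14. Peli1, a ubiquitin ligase, had 0, 36.7 and 65.02 CPM against 70.2, 174 and 573 (log2 ratio −2.69). Polr2j, a subunit of RNA polymerase II, had 0, 55.7 and 85.1 CPM against 87.2, 223 and 468 (log2 ratio −2.39). Anapc16, a subunit of the anaphase promoting complex, had a log2 ratio of −2.08, and Acd, a telomere protein, one of −2.06. Aunip, an Aurora A partner, had −1.61. Pias4, a SUMO ligase, had 24.6, 90.6 and 153 CPM against 169.6, 284 and 678. Under these 3 alternatives Med26 and Aunip stayed without overlap, Peli1 did so at equal depth alone, and Lrrc14, Polr2j, Anapc16, Acd and Pias4 overlapped in each. In the 17 activated eggs Med26 ran from 16.8 to 120.5 CPM and Lrrc14 from 57.7 to 302 CPM, ranges that overlapped the concentrated class. In the 5 wildtype eggs of batch 1 they ran from 245 to 344 and from 744 to 1858 CPM. No measured gene lacked a count in all concentrated eggs. Among measured genes, 19 had a count in every spread egg and in at most 4 concentrated eggs. Genes under the level filter were not part of these counts.

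Gene lists, chosen with earlier results of these data known, describe which functions lay on which side. Shares are to be read against 1.21% higher and 29.8% lower among all measured genes and against their median of −0.57. Of the cortical actin genes, 12 of 19 measured were lower and none higher, with a median log2 ratio of −1.31. They included Pfn1 (−3.03, and −3.64 without egg 38), which feeds actin monomers to filaments, Actb (−2.36) and Cdc42 (−2.28, and −1.69 without eggs under 100000 counts). Pfn1 had 0, 10.9 and 110 CPM in concentrated and 44.8, 175 and 865 CPM in spread eggs. Among chaperones 12 of 18 were lower (median −1.23), and none was higher. Hspa5, the main chaperone of the endoplasmic reticulum, had counts in 2 of 9 concentrated and 14 of 15 spread eggs, at 0, 0 and 18.6 against 0, 76.1 and 316 CPM. Hspa4 had −3.74, but −1.29 without egg 45, whose value was 2671 CPM.

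The proteasome and the respiratory chain were similar in this respect. Of 16 proteasome genes 11 were lower and none higher (median −1.36), among them Psma1 (−2.36) and Psmd8 (−2.04). Of 14 nuclear respiratory chain genes 9 were lower and none higher (median −1.35), among them Cox5b (−2.06). Antioxidant genes had 7 of 9 lower (median −1.39), with Sod1, the cytosolic superoxide dismutase, at 0, 0 and 27.9 against 0, 55.1 and 551 CPM. Of the core splicing genes 10 of 19 were lower (median −1.04), with Snrpd1 at −2.61. Of the 77 cytosolic ribosomal protein genes only 8 passed the level filter, and 5 of these were lower. Glycolysis and core metabolism had 5 of 9 lower, with Gpi1, the glucose phosphate isomerase, at −1.52. Ldhb, a lactate dehydrogenase subunit abundant in eggs, went the other way at 0.84, and at 1.17 without eggs 33 and 45. These list values moved with the filter and the scaling. At a filter of 100 CPM, where the median of all measured genes was −0.36, cortical actin had 3 of 7 lower (median −0.78) and the proteasome 3 of 7 (−0.63). Antioxidant genes then had 1 of 3 lower (−0.47), nuclear respiratory chain genes 2 of 6 (−0.86) and core splicing genes 2 of 7 (−0.63). With TMM scaling core splicing had 5 of 19 lower. Scaled outside the top 50, antioxidant genes had 4 of 9 lower.

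Genes encoded by the mitochondrial genome were on the higher side. All 6 measured had log2 ratios above 0, and 3 were at least 2-fold higher (median 1.01). mt-Co1, a subunit of cytochrome oxidase, had 524, 1366 and 3012 CPM in concentrated and 106, 427 and 1272 CPM in spread eggs (log2 ratio 1.67). mt-Cytb (1.07) and mt-Nd1 (1.04) followed. Without eggs 33 and 45 these were 0.95 and 0.90, so that 1 of the 6 was at least 2-fold higher (median 0.91). Summed over the 13 matched genes, the mitochondrial share was 0.145% to 0.602% in concentrated and 0.0132% to 0.301% in spread eggs.

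Clusters of egg genes lay above the bulk. Of 4 measured Obox homeobox genes, 3 were at least 2-fold higher and none lower (median 1.10): Obox7 (1.56), Obox2 (1.14) and Obox1 (1.05, and 0.95 without egg 49). The windows around their motifs show how alike 2 of these copies are, and their reads cannot be divided with certainty.
Obox2: taggtcttaattTTTTATtgttagagtata
Obox1: taggtcttaattTTTTATtgttagagtata
Obox7: gctattaattttTTTTATtgttagagaata
These lie at chr7:15398478-15398507, chr7:15556799-15556828 and chr7:14665931-14665960 of GRCm38, all on the plus strand and in the 3′ UTR. Of 19 genes in the Oas1, Oog and Fbxw clusters, 3 were higher and none lower (median 0.36), and 18 lay above the median of all measured genes. Fbxw28 (1.27) and Fbxw14 (1.21) were the others at least 2-fold higher beside Oog3. Oas1d, a catalytically inactive relative of the oligoadenylate synthetases, had a log2 ratio of 0.92, and 1.09 without eggs 33 and 45.

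Other egg genes lay lower. Of 7 measured genes for the zona pellucida and egg coat, 5 were lower and none higher (median −1.60). Zp1 had 65.02, 138.97 and 197 CPM against 135.3, 312 and 1222 (log2 ratio −1.71). Zp3 had a median of 0 against 105 CPM, and egg 45 alone had 3364 CPM. The log2 ratio of Zp3 was −4.05 with all eggs, −2.61 without egg 45 and −6.15 without egg 36, and without eggs 33 and 45 the list had 3 of 7 lower and a median of −0.90. The subcortical maternal complex was divided. Zbed3 and Nlrp4f (1.10) were higher, Nlrp5 (−0.46) and Padi6 (−0.05) differed by less than 2-fold, and Nlrp2 (−2.02), Tle6 (−2.05, and −1.40 without eggs 33 and 45), Ooep and Khdc3 were lower. Ooep had 0, 4.64 and 15.5 against 0, 66.8 and 1018 CPM (log2 ratio −4.86, −4.17 without egg 50 and −3.83 without eggs under 100000 counts). Khdc3 had a median of 0 in both classes, and its log2 ratio of −5.08 became −0.83 without egg 45. Without eggs 33 and 45 the median of the complex was −0.19 in place of −1.24. Because Zbed3 is so abundant, the summed share of the complex was 13.6% to 19.7% in concentrated and 3.98% to 9.87% in spread eggs.

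Regulators of stored mRNA lay on both sides. Among masking and CPEB factors 5 of 16 were lower and none higher (median −0.70), including Cpeb3 (−1.67) and Eif4e1b (−1.12, and −0.74 with TMM scaling), an egg cap-binding protein. With TMM scaling 2 of the 16 were lower, and without eggs 33 and 45 it was 3. Pabpc1l, the poly(A)-binding protein of the egg, had a single count in the concentrated class and counts in 13 of 15 spread eggs, with a median of 15.0 CPM. In the CCR4-NOT, decapping and decay list 2 of 26 were higher and 6 lower (median −0.39). The higher ones were Btg4 and Cnot6l (1.02, and 0.87 without eggs 33 and 45), a catalytic deadenylase subunit. Lower ones included Zfp36l2, which binds AU-rich elements and had 2 counts in all concentrated eggs, Parn (−2.21), Cnot1 (−1.65) and Ythdf2 (−1.61), a reader of methylated mRNA. Parn, a deadenylase, had −3.91 at equal depth and −1.45 without eggs under 100000 counts. In the cleavage and polyadenylation list, 1 of 10 was higher and 3 lower, with Sympk at −2.99 (−3.62 at equal depth). The higher one was Pabpn1l, an egg poly(A)-binding protein, at 1.20 (0.54 without egg 40).

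Transcripts known from the literature to gain poly(A) during maturation had 4 of 20 higher and 3 lower, with a median of 0.18, and 15 of them lay above the median of all measured genes. The higher ones were Btg4, Spin1, Slbp and Cnot6l. The lower ones were Mos, Bub1b and Orc6 (−1.01, and −0.60 with TMM scaling). Single eggs weighed on the first 2: Mos had −2.31, with −4.59 without egg 40 and −1.61 without egg 29, and Bub1b had −1.85, with −2.87 without egg 40. Transcripts known to lose poly(A) or to decline had 1 of 12 higher and 6 lower, with a median of −1.23. Among the lower were Gja4, a gap junction protein (−3.18, and −2.33 without egg 45), Actb, Zp1, Zp2 (−1.60, and −0.52 without eggs 33 and 45) and Tuba1c (−1.56, and −2.51 without egg 38). The higher one was Eif4a1 (1.03, and 0.91 without eggs under 100000 counts). Tail lengths were not measured here.

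Genes of the meiotic cell cycle were closer to the bulk of measured genes. Mos, the kinase that holds eggs in metaphase through the MAP kinase cascade, had counts in 2 of 9 concentrated and 8 of 15 spread eggs, at most 61.8 and 267 CPM. In its cascade 4 of 9 were lower and none higher, with Map2k2 at −2.70 and Mapk3 at −2.09. Of the CDK1, cyclin and CDC25 genes 5 of 14 were lower, and Ccnb1, the main cyclin of the egg, had a log2 ratio of 0.15. The anaphase promoting complex had 6 of 17 lower, with Anapc2 at −2.88 and Fzr1 at −2.33 (−1.66 without egg 45). The spindle checkpoint and kinetochore list had 6 of 22 lower (27.3%), near the share among all genes. With TMM scaling 2 of these 22 and 2 of the 14 cyclin and CDK1 genes were lower. Tubulins and kinesins had 9 of 21 lower, which were mostly tubulins such as Tubb6 (−3.55), while Kif11 (−0.02, and −0.75 without egg 28) and Kif23 (0.04) were under 2-fold. In that list 3 of 18 were lower without eggs 33 and 45. None of the 7 measured calcium handling genes differed by 2-fold.

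Features taken from the annotation, which had no part in choosing the classes, were described for the 4575 measured genes (97.0%) found in it. Transcripts at least 2-fold lower in concentrated eggs were short, and so were those at least 2-fold higher. The median annotated length was 2649 bases for the 1373 lower, 2910 bases for the 49 higher and 3532 bases for all. It was 3954 bases for the 3153 genes called neither way. Among genes without overlap it was 1906 bases for the 9 annotated higher and 3075.5 bases for the 10 annotated lower. From the tenth of genes with the lowest ratios to the tenth with the highest, the median length went from 2296 to 4604 bases. Across genes, which are not independent replicates, Spearman's rho with the log2 ratio was 0.35 for transcript length, 0.21 for 3′ UTR length and −0.25 for GC content. Level also went with the ratio (rho 0.28), so length was compared within bands of level. In each band the genes were divided by length into 3 groups of like size. At 20 to 100 CPM 58.4% of the shortest group were lower, against 23.2% of the longest. At 100 to 300 CPM the shares were 32.6% and 10.8%, and at 300 to 1000 CPM they were 18.4% and 4.32%. From 1000 CPM the order was not seen: 1 of the 33 shortest was lower and 11 were higher, against 0 and 2 of the 32 longest. The median annotated length was 865 bases in the nuclear respiratory chain list, 1538 in the proteasome list and 2565 in the cortical actin list, and 7107 in the calcium handling list. The parts of level and length in the list values were not tested.

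**Figure D5:**
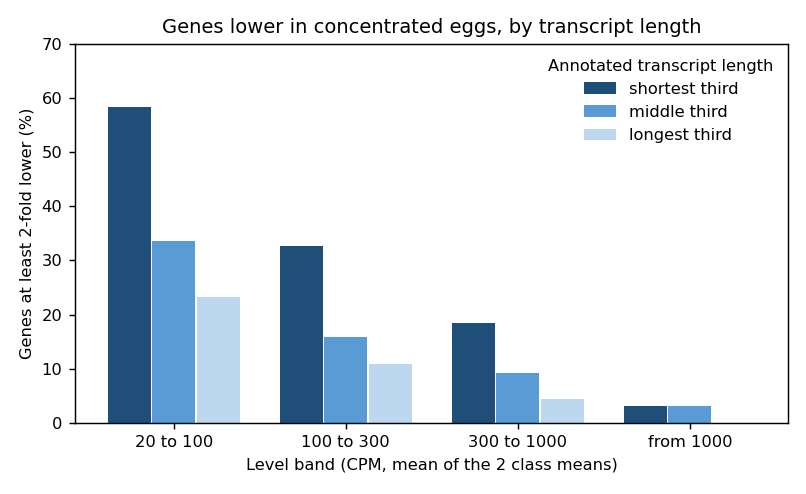
Share of genes at least 2-fold lower in concentrated eggs (%) in 4 bands of level (CPM), for the shortest, middle and longest of 3 groups of annotated transcripts in each band. In the first 3 bands the bars descend from short to long (58.4% to 23.2% in the first), and from 1000 CPM all are at most 3.13%.

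The CPEB element was present in the last 100 bases of 23.5% of the measured genes with annotation. Of the 49 higher genes with annotation 34.7% held it, and of the lower genes 20.8%. Of genes without overlap between classes, 7 of 9 annotated higher genes and 2 of 10 annotated lower genes held it. At 1000 CPM and above, 9 of 31 genes with the motif and 4 of 66 without it were at least 2-fold higher. At 20 to 100 CPM the shares were 0.785% with the motif and 1.08% without. The level bands and the genes without overlap were taken from the same counts that set the classes. Abundant genes also weighed most in the rule, so these contrasts are only a description. Over all genes, rho between the number of motifs and the ratio was 0.05. A match says only that these letters are in the annotated end, which may not be the end used in eggs.

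By rank correlation, the 9 concentrated eggs were about as alike among themselves as the spread eggs were. The median rank correlation between pairs of eggs was 0.66 among concentrated, 0.65 among spread and 0.62 between classes. Leaving out eggs 33 and 45 gave 0.67 among spread and 0.63 between classes, and moved the lowest spread pair from 0.32 to 0.55. By Pearson's r of log2 levels, the medians were 0.67 among concentrated, 0.62 among spread and 0.61 between classes. Without eggs 33 and 45 the median Pearson's r was 0.64 among spread and 0.62 between classes. In eggs that the classes did not use, a higher share of Zbed3 did not go with a higher share of the other top genes throughout. Pearson's r between the share of Zbed3 and the top 50 share without it was 0.68 over the 9 mutant eggs of batch 1 (Spearman's rho 0.18). It was −0.44 over the 49 of batch 2 (rho −0.59) and −0.91 over the 17 activated eggs (rho −0.82). Spin1 had r of 0.83, −0.25 and −0.71 in the same groups. These are descriptions over eggs that share a plate and a total, and no egg in these groups reached the concentrated range.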

How the data were processed

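The authors deposited raw counts per gene symbol for 107 eggs (21564 genes), whole numbers without normalisation. Reads were aligned with STAR, counted with HTSeq and assigned to GRCm38 (mm10), per the submitters' processing notes. Tool versions, gene annotation and the strand option of the counting were not given in the sources used here. Smart-seq2 does not mark strand, so overlapping and antisense genes cannot be told apart.

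Counts were divided by each egg's total and scaled to CPM (Python 3.11.15, pandas 2.3.3). Class levels were means over eggs with equal weight. Genes needed at least 20 CPM in the mean of the 2 class means, and 2-fold was the threshold for a higher or lower gene. Of 107 eggs 3 had under 10000 counts and were left out. The 9 and 15 eggs, the 39 lists (862 of 869 entries matched) and the tests were chosen with earlier results of these data known. The rule for named genes took the 15 largest gains and losses in mean CPM, the 8 highest and lowest ratios of at least 100 CPM without overlap, up to 3 called members of each list, Mos and genes in the top 50 of all concentrated eggs. Some genes the rule took are not reported here. Other genes were named after their values were seen, as examples of their lists or of the top 50. Exact tests used SciPy 1.17.1, and TMM factors came from edgeR 4.0.16 (R 4.3.3). The ratio script was tested on simulated data. Lengths and 3′ UTR sequences came from GENCODE M21 (GRCm38). Alternatives changed scaling, depth, filter, average and eggs, and no 2 eggs had identical counts.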

Additional observations from a re-analysis of the deposited data

Results flagged for a closer look

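In the concentrated class, 1 egg lay far from the other 8 in 8 of 78 sets of values (genes named above and egg measures) tested for a lone egg by Dixon's 95% critical value, where chance gives about 5% for normally distributed values. Levels here are not so distributed, and Zp3, Mos and Pabpc1l had a class median of 0, so the 5% is only a rough guide. The test was limited to genes named in the text after a first result was seen: over all genes the naming rule took, 22 sets (15.6%) had such an egg, against 10.3% of the sets kept. The spread class, with 15 eggs, was not tested. Gyg1 had 1256 CPM in egg 38, against a class median of 455 CPM. Foxo3 had 2225 CPM in egg 28, against a median of 1175 CPM. Egg 36 was highest in Zp3 (148 CPM, median 0), Tle6 (230 CPM, median 43.6 CPM) and Tubb6 (41.1 CPM, median 13.9 CPM). Egg 40 was highest in Mos (61.8 CPM, median 0) and Bub1b (587 CPM, median 83.4 CPM). Pabpc1l had 3.87 CPM in egg 39, the single count of the class, which the rule flags by construction.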

How the results depend on the processing

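Counts are given as genes at least 2-fold higher, at least 2-fold lower, and without overlap above and below (57, 1406, 10 and 11 as reported). TMM scaling gave 174, 902, 21 and 3, and scaling by counts outside each egg's top 50 gave 252, 1025, 20 and 4. Thinning to equal depth gave 67, 1412, 9 and 3. A filter of 5 CPM gave 181 higher and 2730 lower, and one of 100 CPM gave 27 and 284. Medians over eggs gave 86 higher. Without eggs under 100000 counts, 30 genes lay below without overlap. After the data were seen, further alternatives were added. Without eggs 33 and 45, 62 genes were higher and 1242 lower, and 21 lay below without overlap. Of the 1406 lower genes, 1119 were still called lower without these eggs. With no filter 619 were higher and 3494 lower, so that 15.0% of called genes were higher. With Zbed3 left out of totals 99 were higher and 4 lay below without overlap. Leaving out each egg in turn gave 49 to 67 higher, 1261 to 1468 lower, 10 to 16 above and 11 to 23 below without overlap. Egg 31 gave the highest of the last counts (16 and 23), and egg 45 gave 18 below. The class without Zbed3, Spin1 and Tcl1 held 5 eggs. Ubb had a log2 ratio of −1.22, −1.66 to 0.10 when each egg was left out (the latter without egg 45) and 0.42 without eggs 33 and 45. The cause of these shifts was not tested, except that filters change the number of genes measured by construction. The test of total counts gave an exact permutation p of 0.0904 without row D and 0.102 on raw totals. No paired analysis was possible because the class values come from no test and egg numbers do not pair eggs. Depth limited the genes with few counts: 1 count was 1.59 to 15.0 CPM, and single-egg values under that step could not be seen.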
